A study of Mus musculus with 28 samples.

Results

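The core pluripotency factors examined here are the 6 genes Pou5f1 (encoding OCT4), Sox2, Nanog, Sall4, Utf1 and Lin28a, which were taken by name from the 24980 genes with a unique symbol in each of 3 tables of nascent RNA. All 6 were found in all 3 tables. The study asked how loss of Elongin A (EloA), a factor that stimulates elongation by RNA polymerase II in vitro, changes transcription in mouse embryonic stem cells (mESC). New transcripts were read out by Bru-seq, where 5-bromouridine (BrU) is taken up into new RNA and the labelled RNA is pulled down with an antibody and sequenced.

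Wild-type (WT) cells and EloA null cells, both named in the labels as CCE28 mESC, were grown on mouse embryonic fibroblast feeders with LIF and 2 kinase inhibitors and were then depleted of feeders. In the steady-state condition BrU was given at 2 mM for 10 min. In the recovery conditions transcription was blocked with flavopiridol (FP), an inhibitor of the kinase that releases paused polymerase, at 1 µM for 60 min, and cells were then given BrU for 5 min or 10 min after the drug was washed away. There were 2 libraries per genotype and condition, 12 in all. The WT and EloA null cells were both given by another laboratory. The part of Eloa that was removed is not given in the sources used here, and the treatment protocol names the line CJ7. The first steady-state library titled EloA null carries the genotype label wild type, so it was grouped by its title, and some steady-state counts are also given without it.

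OCT4 and SOX2 bind DNA side by side and, together with NANOG, occupy enhancers of many genes linked to the pluripotent state, their own included. SALL4 is a zinc-finger protein that works with them, UTF1 is a chromatin-bound protein made in undifferentiated cells, and LIN28A is an RNA-binding protein that blocks maturation of the let-7 microRNAs. Loss of OCT4 or SOX2 ends self-renewal, and all 6 genes are switched off or lowered as most lineages form.

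The RPKM values of these genes did not measure the whole gene. RPKM is a read number divided by the counted length and by the size of the library, so its smallest steps give the counted length. For the 5 genes with introns, values came out as whole reads when the length was taken as the sum of the bases that are intronic in a RefSeq transcript plus 1 exon base at each end of an intron. That length was 3401 bases for Pou5f1, 5161 for Nanog, 16168 for Sall4, 12013 for Lin28a and 99 for Utf1. Sox2, which has a single exon, was counted over that exon (2466 bases fitted, 2467 annotated). Levels of the other 5 therefore report mainly unspliced RNA, while the level of Sox2 can also hold mature RNA. In Pou5f1, Nanog and Sall4 the counted stretch includes exon bases of some RefSeq transcripts that lie within an intron of others.

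**Figure D1:**
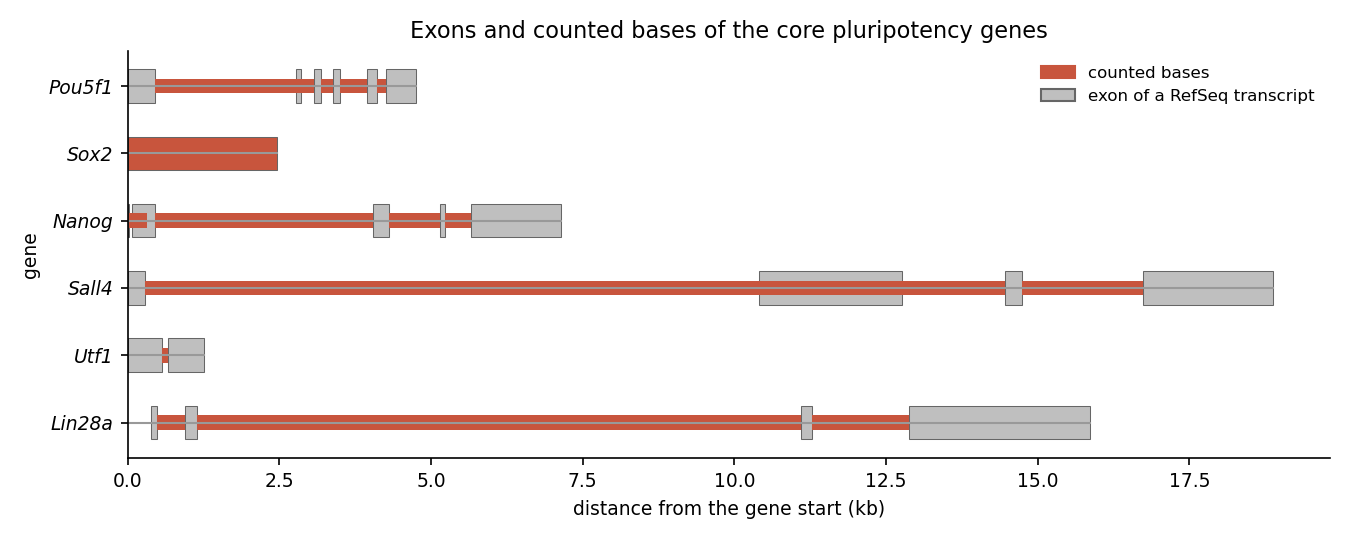
Exons of RefSeq transcripts (grey) and counted bases (red) of the 6 genes, drawn to scale as the distance from the gene start in kb. Utf1 has the shortest counted stretch, 99 bases, and Sall4 the longest, 16168.

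The genes lie on 6 chromosomes. In GRCm38, the assembly behind mm10, Pou5f1 is at chr17:35506032-35510777 and Sox2 at chr3:34649995-34652461, both on the plus strand. Nanog is at chr6:122707489-122714633 and Utf1 at chr7:139943856-139945112, also on the plus strand. Sall4, at chr2:168748332-168767201, and Lin28a, at chr4:134003330-134019196, are on the minus strand. All Utf1 values rest on the single intron of that gene, chr7:139944429-139944527 with its 2 flanking bases, printed here because so short a stretch limits every Utf1 value. The 97 intron bases are in capitals.
Utf1 counted bases: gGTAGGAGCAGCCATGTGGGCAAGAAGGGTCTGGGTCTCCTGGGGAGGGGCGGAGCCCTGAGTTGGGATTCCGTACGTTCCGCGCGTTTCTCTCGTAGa

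The 250 bases before the start of the 3 factors at the centre of the network are shown from the RefSeq promoter table (GRCm38.p6), in which 5 of the 6 genes were matched, Sall4 being the other. Capitals mark the motifs searched on both strands, which were chosen with these sequences in view: the octamer core ATGCAAA bound by OCT4, the SOX core CATTGT, the SOX core followed by any 1 base and the octamer core (the joined motif), the GC box GGGCGG, the box CCAAT and the letters TATAAA. The last, in 12.3% of all windows, were not found in these 3.
Pou5f1, chr17:35505782-35506031: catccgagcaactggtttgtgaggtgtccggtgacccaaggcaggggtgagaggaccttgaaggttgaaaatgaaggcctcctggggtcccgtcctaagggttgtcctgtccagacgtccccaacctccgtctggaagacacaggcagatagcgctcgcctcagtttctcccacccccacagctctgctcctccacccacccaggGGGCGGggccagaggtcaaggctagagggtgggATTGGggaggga
Sox2, chr3:34649745-34649994: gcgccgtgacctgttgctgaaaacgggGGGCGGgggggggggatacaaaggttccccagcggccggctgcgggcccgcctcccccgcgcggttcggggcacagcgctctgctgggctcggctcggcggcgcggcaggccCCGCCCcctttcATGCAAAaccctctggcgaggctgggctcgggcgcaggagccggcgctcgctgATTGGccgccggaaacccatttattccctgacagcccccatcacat
Nanog, chr6:122707239-122707488: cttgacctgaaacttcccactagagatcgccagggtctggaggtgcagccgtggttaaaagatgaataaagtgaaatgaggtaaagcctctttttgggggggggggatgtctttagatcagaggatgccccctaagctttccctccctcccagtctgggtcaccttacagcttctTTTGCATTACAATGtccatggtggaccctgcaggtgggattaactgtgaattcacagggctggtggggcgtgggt

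The Nanog window held the joined SOX and octamer motif on the strand opposite to the one printed, at -75 to -62 from the start. In all, 2 of 32536 promoter windows held these letters (0.006%), and both belonged to Nanog among 26734 genes. The Sox2 window held an octamer core at -99 to -93, as did 4.15% of windows. Pou5f1 had neither core in this stretch, but a GC box (33.0% of windows) at -45 to -40 and a CCAAT box (33.8%) at -12 to -8 read on the other strand. A match is a description of letters and not of a bound site.

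Library sizes worked out from the whole-read steps ran from 9857527 reads in 5-min recovery to 28547356 in 10-min recovery. Eloa itself, counted over its introns, was higher in the libraries titled EloA null, and the 2 genotypes did not overlap in any condition. Its steady-state RPKM was 1.18 and 1.16 in WT and 1.96 and 1.89 in EloA null. The value of 1.96 is that of the library whose genotype label is wild type. Counts over introns do not show whether the protein is made. The study examined EloA protein in both lines by immunoblot. It also compared EloA binding signal in WT cells with that in null cells and with a control antibody, and regards the signal as specific. One of its examples is Nanog, with EloA at the promoter and past the polyadenylation signal. At the rRNA gene Rn45s the signal in null cells was near control-antibody background. The genotypes stand here as titled. Markers of pluripotent cells other than the 6 genes were abundant, with a summed RPKM of 143 to 156 over 7 genes in the 4 steady-state libraries. Feeder fibroblast markers summed to 1.71 to 2.09 over 10 genes in the same libraries, the 3 highest in WT being Col1a1, Col1a2 and Fbln2, and 0 of the 10 passed the expression limit used here, a mean RPKM above 0.5 in either genotype. After FP the same sum was 1.54 to 1.68 in WT and 0.907 to 1.26 in EloA null at 5 min, and 2.26 to 2.94 against 1.69 to 2.16 at 10 min. Its part in the results was not tested. Replicate libraries differed by more than counting error (chi-square over its degrees of freedom between 7.90 and 17.8).

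In WT steady state the level fell in the order Nanog, Sox2, Pou5f1, Sall4, Utf1 and Lin28a. Sox2 was counted over an exon, which can hold mature RNA, and the others over introns. Its place in any such order therefore rests on an unlike measure. Mean RPKM was 20.6 ± 2.89 for Nanog (SD, n = 2) and 12.4 ± 1.22 for Sox2, which placed them above 98.5% and 96.4% of the 11345 genes tested. Pou5f1 stood at 7.92 ± 0.791 and Sall4 at 5.72 ± 0.580. Utf1 had 3.29 ± 0.466 on 17 reads over both libraries, and Lin28a 0.353 ± 0.00664 on 220 reads. No 2 neighbours in this WT order overlapped between libraries. The order was the same in the libraries titled EloA null, but Pou5f1 and Sox2 overlapped. At 5 min after FP Sox2 stood above Nanog in both genotypes, and Pou5f1 and Sall4 overlapped in both.

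**Figure D2:**
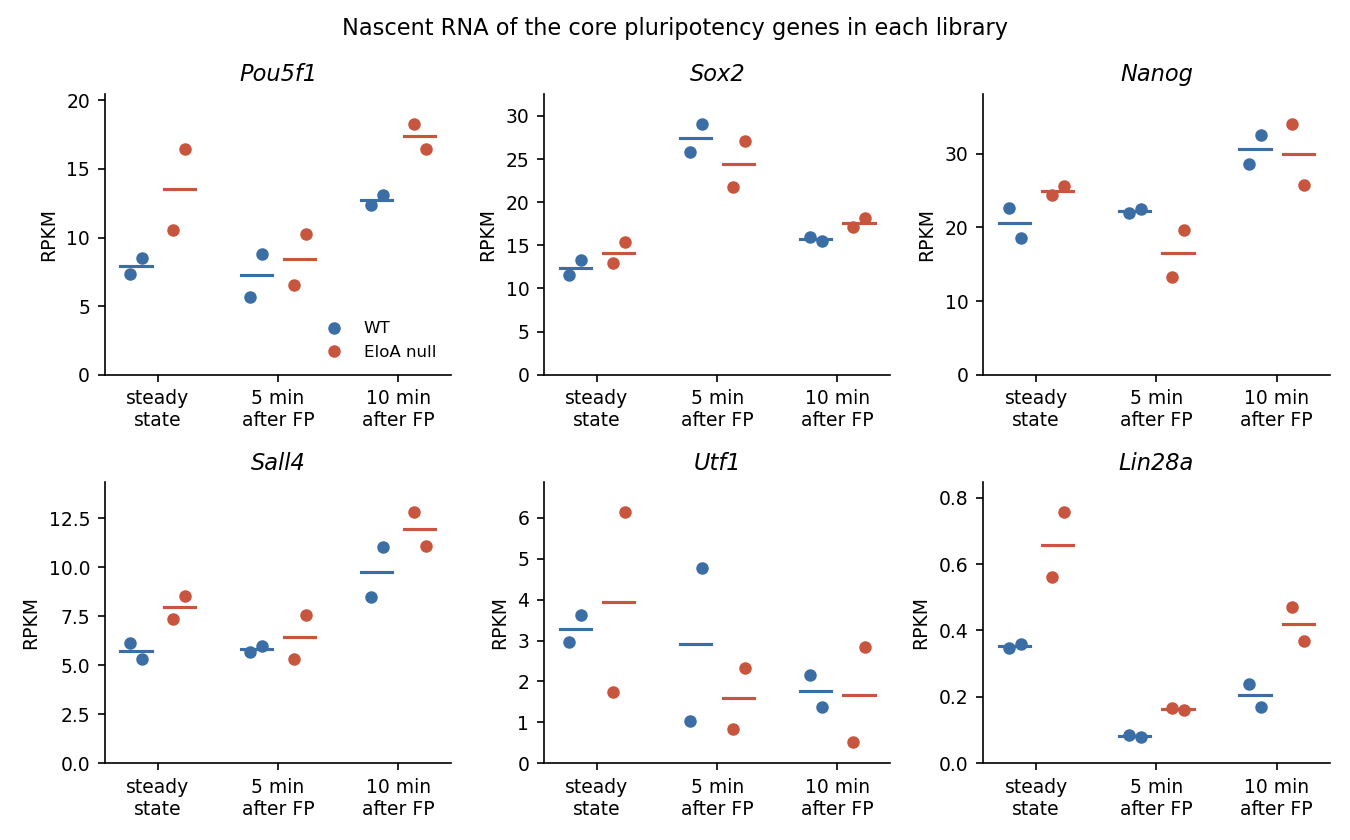
RPKM of each gene in each of the 12 libraries (points) by condition, WT in blue and EloA null in red, with the mean of each pair as a line and a separate linear axis starting at 0 for each gene. Lin28a lies higher in EloA null in all 3 conditions, and Nanog changes sides between steady state and 5 min.

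In steady state all 6 genes had a higher mean in the libraries titled EloA null. For 4 of them (Pou5f1, Nanog, Sall4 and Lin28a) both of these libraries lay above both WT libraries. The largest ratios of means were 1.87 for Lin28a and 1.71 for Pou5f1. None of the 6 passed limma, an empirical Bayes test fitted across all genes, at an adjusted p of 0.05. Among all genes tested 32.0% lay apart in this direction, 7.21% had a ratio over 1.5 and 0.0% passed the adjusted test. Lin28a was among the genes tested only because of its level in EloA null. Of the other 5 genes all 5 had the higher mean (56.5% of all genes), 3 lay apart upward, 1 had a ratio over 1.5, and the median log2 difference was 0.29, where that of all 11345 genes was 0.03. In these bulk samples, more cells transcribing a gene and more transcription per cell cannot be told apart.

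Pou5f1, the gene for OCT4, had an RPKM of 7.36 and 8.48 in WT and of 10.6 and 16.5 in EloA null. The genotypes did not overlap, but the 2 EloA null libraries lay further apart from each other than the lower of them lay from WT. The log2 difference was 0.73 (SE 0.24, limma adjusted p = 0.227), and with 1 library left out it ran from 0.42 (without the second EloA null library) to 1.05 (without the first).

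Sox2, the partner of OCT4 on DNA, had 11.5 and 13.2 in WT and 12.9 and 15.4 in EloA null. These ranges overlapped, and the log2 difference was 0.19 (SE 0.14, limma adjusted p = 0.507). It was 0.036 with the trend of each library with GC content removed, and ran from 0.062 (without the second EloA null library) to 0.31 (without the first) with 1 library left out. The long noncoding gene Sox2ot contains Sox2 on the same strand, so its unspliced reads can fall in the Sox2 exon. Sox2ot had a mean of 1.65 in WT and 1.75 in EloA null, lower than Sox2 by RPKM, which is per length.

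Nanog, a homeodomain factor that sustains self-renewal, had 22.6 and 18.5 in WT and 24.4 and 25.6 in EloA null. The groups lay apart, with a log2 difference of 0.29 (SE 0.14, limma adjusted p = 0.351) that was 0.14 without the second WT library and 0.43 without the first.

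Sall4 had 6.13 and 5.31 in WT and 7.38 and 8.53 in EloA null, again with no overlap. Its log2 difference was 0.47 (SE 0.13, limma adjusted p = 0.185). An opposite-strand noncoding gene, Gm14261, overlaps the start of Sall4 over 1059 bases and was not analysed here.

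The Utf1 comparison rests on very few reads. Its RPKM of 2.96 and 3.62 in WT and of 1.75 and 6.14 in EloA null stood for 7, 10, 4 and 17 reads. The WT values lay between the 2 EloA null values, and the log2 difference was 0.01 (SE 0.60, limma adjusted p = 0.996). Summed over libraries, 17 reads in WT had an exact 95% Poisson interval of 9.90 to 27.2 and 21 reads in EloA null one of 12.999 to 32.1, which cover counting error only.

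Lin28a had 0.348 and 0.358 in WT and 0.561 and 0.756 in EloA null. It passed the expression limit of a mean RPKM above 0.5 only through the EloA null libraries, so its presence among the genes tested already required the higher level there. The log2 difference was 0.73 (SE 0.19, limma adjusted p = 0.182) with the pseudocount of 0.1 RPKM used throughout. At this low level it depended on that choice, being 0.29 with a pseudocount of 1 and 0.87 with 0.01. The reads behind it were 220 in WT (exact 95% Poisson interval 191.9 to 251.1) and 410 in EloA null (371 to 452).

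Over the whole table limma called 0 of 11345 genes, while 2083 had an unadjusted p under 0.05. Pou5f1, Sall4 and Lin28a were among these, Lin28a being tested only because of its level in EloA null. Of all genes, 14.1% had such a p with a higher level and 4.22% with a lower one. A fit that shares the spread of all 12 libraries called 132 genes and one with a robust variance 81, and 0 of the 6 genes were among them in either. The comparison without 1 library is given for the genes other than Lin28a. Without the first library titled EloA null, whose genotype label is wild type, all of these lay above both WT libraries in the remaining one. Among all genes 43.4% did. Without the second, Pou5f1, Nanog and Sall4 did, against 45.8% of all genes, while Sox2 overlapped and Utf1 lay below. Without the first, log2 differences were 1.05 for Pou5f1, 0.31 for Sox2, 0.32 for Nanog and 0.57 for Sall4. They were 0.92 for Lin28a and 0.89 for Utf1, whose EloA null value then rested on 17 reads.

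**Figure D3:**
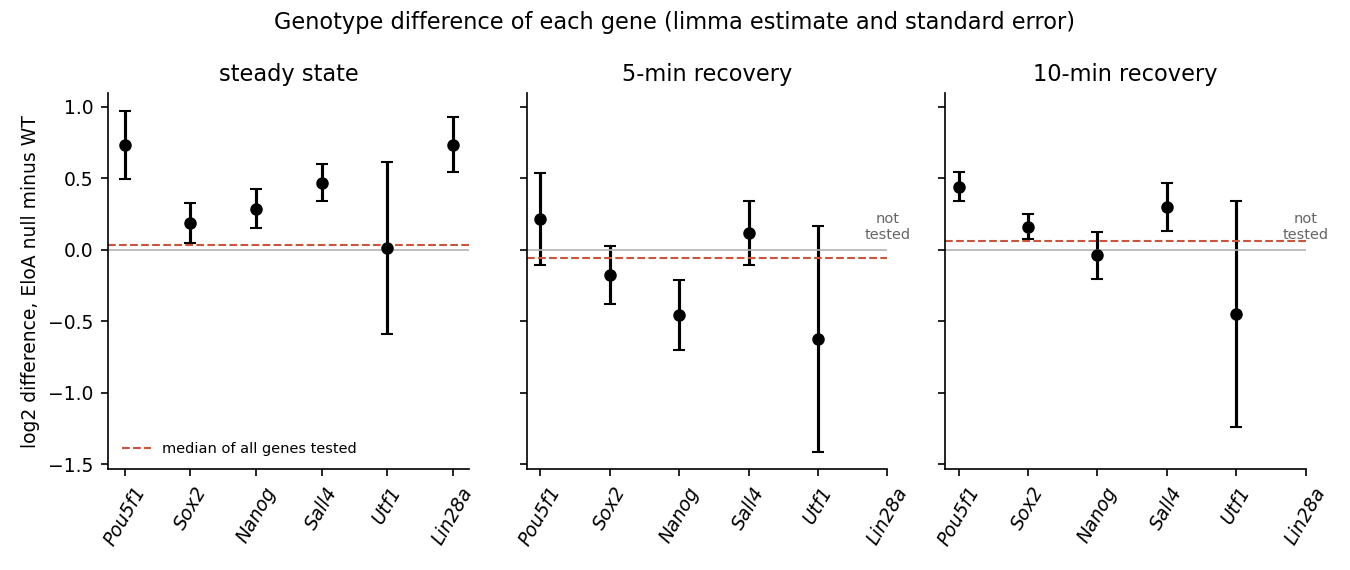
Log2 difference in RPKM + 0.1 between EloA null and WT for each gene in the 3 conditions, as the limma estimate with its standard error, and the median over all genes tested as a dashed line (0.03 in steady state). Lin28a was below the expression limit in both recovery conditions and was not tested there.

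At 5 min after FP removal the genes no longer lay on one side. Lin28a was below the expression limit at this time, so counts are given over the other 5. Means were higher in EloA null for Pou5f1 and Sall4, 2 of 5, where 40.8% of all genes tested had the higher mean, and lower for Sox2, Nanog and Utf1. A ratio of means over 1.5 was seen downward for Utf1 (6.72% of all genes) and upward for none of the 5 (5.4%). Of the 5, 1 gene (Nanog, lower) lay apart between genotypes, where 15.4% of the 8984 genes tested lay apart upward and 25.0% downward. Of the 5 genes tested 0 passed limma, as did 0.0% of all genes, with 846 genes (4.54% higher and 4.88% lower) and 0 of the 5 at an unadjusted p under 0.05. The fit over 12 libraries called 532 genes and the robust one 29, none of them among the 5. Without the first EloA null library 2 of the 5 genes, Pou5f1 and Sall4, lay above both WT libraries (35.0% of all genes), and without the second 4 of the 5 lay below (46.5%).

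Nanog had an RPKM of 21.96 and 22.5 in WT and of 13.3 and 19.7 in EloA null. Both EloA null libraries were lower, by 0.46 on the log2 scale (log2 difference -0.46, SE 0.24, limma adjusted p = 0.638), and they differed more from each other than the WT libraries did. The difference was -0.74 without the second EloA null library and -0.17 without the first. Sox2 had 25.8 and 29.1 in WT and 21.7 and 27.1 in EloA null, which overlapped (log2 difference -0.18, SE 0.20, limma adjusted p = 0.840). Its difference was -0.34 without the second EloA null library and -0.018 without the first.

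Pou5f1 and Sall4 also overlapped at this time. Pou5f1 had 5.67 and 8.80 in WT and 6.54 and 10.3 in EloA null, a log2 difference of 0.21 (SE 0.32, limma adjusted p = 0.888). Sall4 had 5.70 and 5.98 in WT and 5.31 and 7.54 in EloA null, a log2 difference of 0.12 (SE 0.22, limma adjusted p = 0.916). In both genes the first EloA null library was lower than the second, so that leaving out the second turned the sign to -0.11 for Pou5f1 and -0.13 for Sall4.

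Utf1 and Lin28a had few reads after 5 min. Utf1 had 1 and 6 reads in WT and 1 and 4 in EloA null, and its RPKM of 1.02, 4.78, 0.848 and 2.34 in the same order overlapped (log2 difference -0.62, SE 0.79, limma adjusted p = 0.860). Lin28a had 0.0844 and 0.0789 in WT and 0.168 and 0.159 in EloA null. These values came from 22 reads in WT (exact 95% Poisson interval 13.8 to 33.3) and 57 in EloA null (43.2 to 73.9), and lay below the expression limit in both genotypes.

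At 10 min Lin28a was again below the expression limit. Of the other 5, Pou5f1, Sox2 and Sall4 had higher means in EloA null, 3 of 5 beside 58.0% of the 10239 genes tested. The libraries of these 3 lay apart, as did 33.5% of all genes in this direction. A ratio of means over 1.5 was seen for 0 of the 5, and for 9.41% of all genes upward and 3.01% downward. Nanog and Utf1 overlapped. Of the 5 genes tested 0 passed limma, as did 0.0% of all genes, and Pou5f1 alone had an unadjusted p under 0.05, as did 2098 genes of the table, 15.2% of it with a higher and 5.25% with a lower level. The fit over 12 libraries called 264 genes and the robust one 26, again none of the 5.

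Pou5f1 had 12.4 and 13.1 in WT and 18.3 and 16.4 in EloA null, with replicates closer together than in steady state. The log2 difference was 0.44 (SE 0.10, limma adjusted p = 0.152). It was 0.25 with the GC trend removed, and its error was 0.29 in the fit over 12 libraries. Sall4 had 8.48 and 11.03 in WT and 12.8 and 11.1 in EloA null, so that the lower EloA null library lay just above the higher WT one (log2 difference 0.30, SE 0.17, limma adjusted p = 0.364). Without the first WT library the difference was 0.11, and 0.19 with the GC trend removed.

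Sox2 had 16.0 and 15.5 in WT and 17.1 and 18.2 in EloA null, a log2 difference of 0.16 (SE 0.09, limma adjusted p = 0.358). This small difference went to -0.0019 when the trend of each library with GC content was removed. Nanog had 28.7 and 32.5 in WT and 34.1 and 25.8 in EloA null, so the WT values lay between the others (log2 difference -0.04, SE 0.16, limma adjusted p = 0.909). Its level was the highest of the 6 in both genotypes at this time.

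Lin28a had 0.239 and 0.170 in WT and 0.471 and 0.367 in EloA null, the same side as in the other conditions. It was below the expression limit, and in a fit with no limit its log2 difference was 0.54 at 5 min and 0.77 at 10 min (SE 0.11 and 0.22, limma adjusted p = 0.395 and 0.311). The ratio of means was 1.87 in steady state, 2.00 at 5 min and 2.05 at 10 min. Utf1 rested on 4, 3, 1 and 8 reads, with an RPKM of 2.15 and 1.37 in WT and of 0.506 and 2.83 in EloA null, and overlapped (log2 difference -0.45, SE 0.79, limma adjusted p = 0.771).

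Whether the genotype difference itself changed after FP was tested in a fit of all 12 libraries, as the difference in recovery minus that in steady state. For the 5 genes in both tables all 5 estimates were negative at 5 min, between -0.35 for Sall4 and -0.74 for Nanog. The median over 8627 genes was -0.08, so most genes of the table were on the negative side too. The share of negative estimates over all genes was not counted, and the 5 estimates come from the same libraries. With 1 library left out they ran from -0.84 to -0.20 for Pou5f1, from -0.52 to -0.21 for Sox2 and from -0.60 to -0.10 for Sall4, and Utf1 changed sign. None passed limma. Nanog came nearest (-0.74, SE 0.29, limma adjusted p = 0.820), and at 5 min 7 genes or 0.0811% passed, while Nanog was among the 481 (5.58%) with an unadjusted p under 0.05. Without the first steady-state library titled EloA null these counts over all genes were 7 and 490. At 10 min estimates ran from -0.03 for Sox2 to -0.46 for Utf1 with errors of 0.20 to 1.34, and 1 of 9823 genes (0.0102%) passed, which was not one of the 5. At an unadjusted p under 0.05 there were 135 genes (1.37%) and 0 of the 5. These 2 differences share the steady-state libraries.

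The levels after FP were then set beside those of steady state within each genotype. The tables were normalized separately and RPKM is relative to the library, so the ratios are a description with no test, given with the median of genes of like span. They ran from 0.128 (Utf1, in 1 EloA null library at 10 min) to 2.35 (Sox2, in 1 WT library at 5 min).

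Sox2 had the highest ratio at 5 min in both genotypes, at 2.09 and 2.35 in WT cells and at 1.54 and 1.91 in EloA null cells. Genes spanning under 5 kb had a median of 0.769 and 0.731 in the same WT libraries. Since Sox2 was counted over an exon, single-exon coding genes under 5 kb are the closer match, and their medians were 1.13 and 1.11 over 200 genes. Of these, 78.0% and 82.0% had a lower ratio than Sox2. At 10 min the Sox2 ratio was 1.29 and 1.25 in WT and 1.21 and 1.28 in EloA null, so it was lower than at 5 min in every library.

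Pou5f1, Nanog and Sall4 followed another order, with higher ratios at 10 min than at 5 min in all 4 libraries of each time. The mean ratio of Pou5f1 went from 0.914 ± 0.280 (SD, n = 2) at 5 min to 1.61 ± 0.0636 at 10 min in WT, and from 0.623 ± 0.196 to 1.29 ± 0.0977 in EloA null. Nanog went from 1.08 ± 0.0187 to 1.49 ± 0.133 in WT and from 0.659 ± 0.182 to 1.20 ± 0.234 in EloA null. Sall4, the longest of the 6, had 1.02 ± 0.0346 and 1.70 ± 0.316 in WT and 0.807 ± 0.198 and 1.502 ± 0.153 in EloA null. This order depends on the scale. Divided by the median ratio of genes under 15 kb in each library, the mean ratios at 5 and 10 min were 1.22 and 1.20 for Pou5f1, 1.43 and 1.11 for Nanog and 1.35 and 1.28 for Sall4 in WT. In EloA null they were then 0.984 and 0.943, 1.04 and 0.876, and 1.28 and 1.10 in the same order of genes.

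Nanog was above its steady-state level at 5 min in both WT libraries (1.07 and 1.09) and below it in both EloA null libraries (0.531 and 0.787). Divided by the median ratio of genes under 15 kb, the EloA null values were 0.883 and 1.20, on either side of 1, and the WT values 1.33 and 1.53. The median of its span class, 5 to 15 kb, was 0.824 and 0.702 in WT and 0.621 and 0.657 in EloA null. The genotypes of Nanog thus did not overlap in this ratio, and the class medians were also lower in EloA null. At 10 min Nanog stood below its class in all 4 libraries, where the class medians ran from 1.59 to 1.80.

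Lin28a stayed below the median of genes of its span in both genotypes. Its ratio was 0.239 and 0.223 in WT and 0.255 and 0.241 in EloA null at 5 min, against class medians of 0.456 to 0.580 for genes of 15 to 30 kb. At 10 min it was 0.677 and 0.481 in WT and 0.715 and 0.558 in EloA null, while the class medians were 1.37 to 1.49. Between 10.2% and 23.2% of the class had a lower ratio than Lin28a across the 8 libraries. Sall4, of the same class, lay above 49.4% to 83.6% of it.

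**Figure D4:**
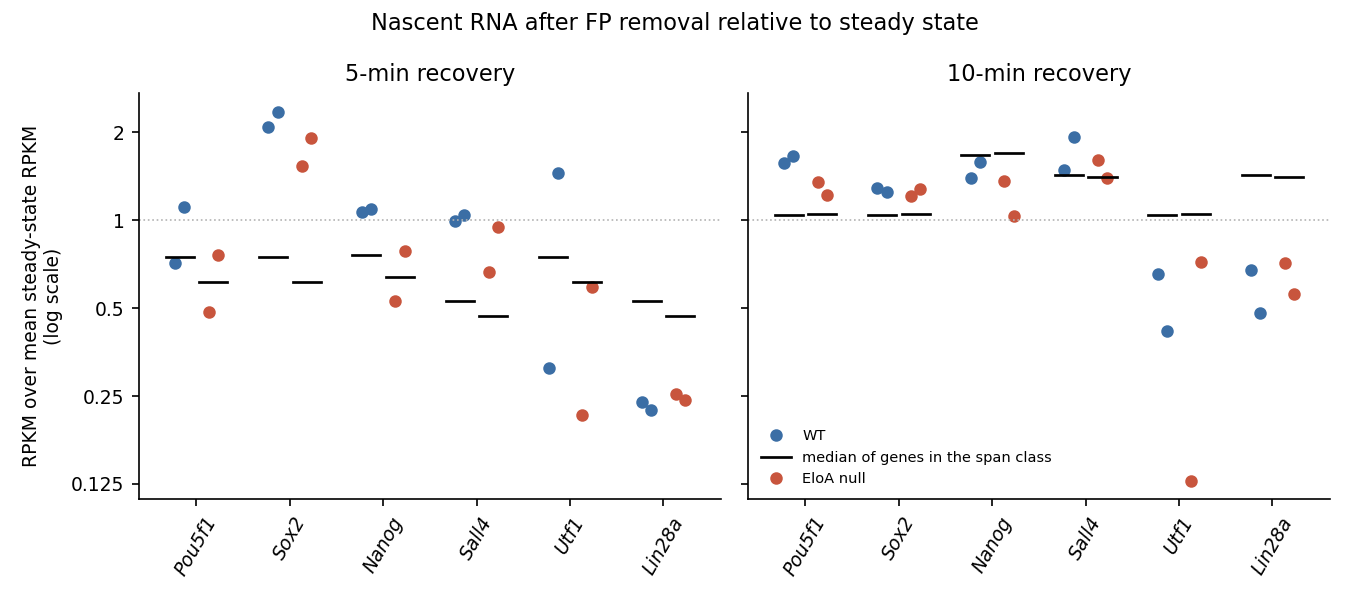
RPKM after FP over the mean steady-state RPKM of the same genotype, on a log scale, for each recovery library (points, WT blue and EloA null red), with the mean of the library medians for genes of the same span class as a black line. Sox2 is highest at 5 min and Lin28a lies below its class at both times.

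The genes around these factors were compared in the same fits. Of 16 transcription factors that work with the core genes in the pluripotency network, 15 were tested in each condition, and 0 passed limma in any. In steady state 12 of the 15 had a higher mean in EloA null (56.5% of all genes did), with a median log2 difference of 0.08. In the same condition 6 lay apart upward and 3 downward, beside 32.0% and 21.4% of all genes. At 5 and 10 min the medians were -0.12 and -0.03, and 5 and 6 of 15 had the higher mean, beside 40.8% and 58.0%. Zfp42, which encodes REX1, a marker of undifferentiated cells, was the most abundant, at 85.7 and 82.4 in WT and 74.7 and 79.6 in EloA null in steady state. Tbx3 had 25.8 and 23.2 in WT and 27.7 and 24.2 in EloA null, and Rif1 had 23.9 and 25.0 against 23.4 and 20.5. Zfp42 and Rif1 lay apart downward, the side opposite to the core genes, with limma adjusted p = 0.590 and 0.503.

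Of 16 targets and markers of the pluripotent state 15 were matched and 13 tested in each condition and 0 passed. In steady state 10 of 13 had a higher mean in EloA null (56.5% of all genes did), with a median log2 difference of 0.22. Of the 13, 7 lay apart upward and 1 downward, beside 32.0% and 21.4% of all genes. Tdh, the threonine dehydrogenase on which mouse ES cells depend, had 15.6 and 14.8 in WT and 26.5 and 26.2 in EloA null, a log2 difference of 0.79 (SE 0.10, limma adjusted p = 0.103). Tdh also lay apart upward at 5 min (15.0 and 14.1 against 21.8 and 24.4) and at 10 min (40.5 and 35.2 against 59.4 and 55.0). Spp1, which encodes osteopontin, had 16.2 and 15.8 in WT and 16.9 and 12.8 in EloA null, with overlap. Fbxo15, an F-box gene used as a reporter of pluripotency, lay apart downward at 15.3 and 14.5 against 12.6 and 11.4 (log2 difference -0.31, SE 0.10, limma adjusted p = 0.237).

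**Figure D5:**
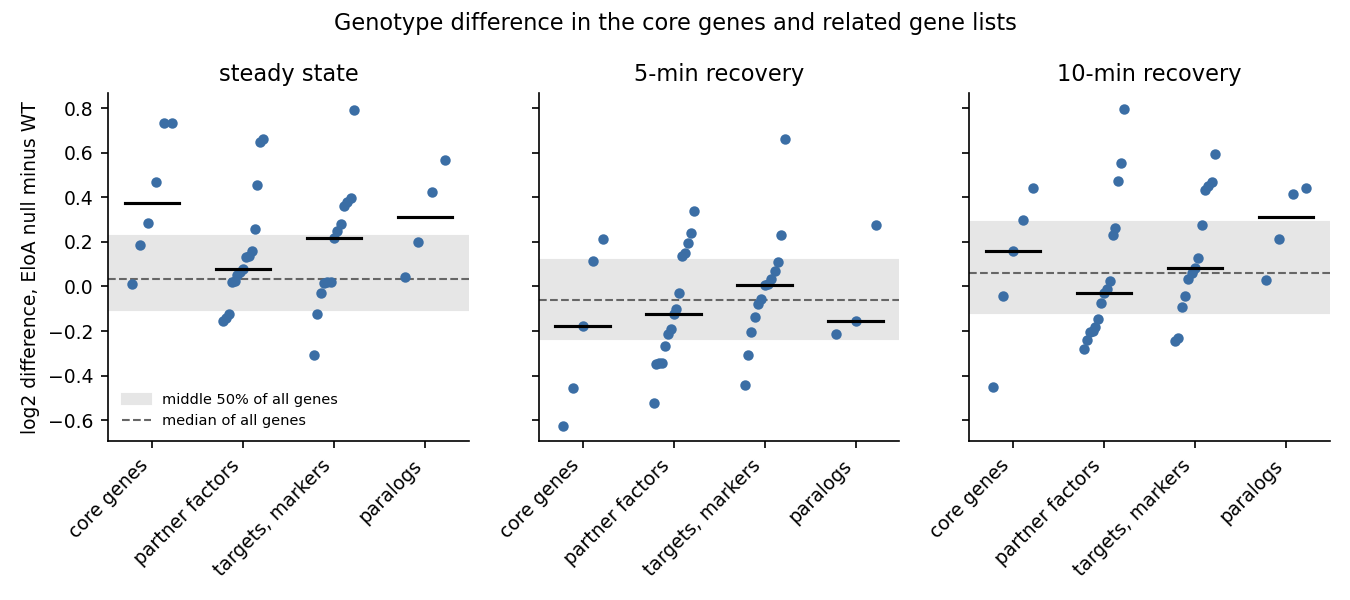
Log2 difference between EloA null and WT for each tested gene of the core set and of 3 related lists in the 3 conditions (points, sorted within a list), with the list median as a black line, and the median and the middle 50% of all genes as a dashed line and a grey band. The core set has a median of 0.38 in steady state, Lin28a included, and of -0.18 at 5 min, where Lin28a was not tested.

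Gene span moved with the genotype difference across the whole table. In steady state the median log2 difference was 0.19 over genes under 5 kb, 0.12 at 5 to 15 kb, 0.02 at 15 to 30 kb and -0.05 over 30 kb. At 10 min these medians were 0.27, 0.17, 0.01 and -0.06. Pou5f1 (4.75 kb) and Sall4 (18.9 kb) exceeded the upper quartile of their span class in steady state, which was 0.47 and 0.17. Lin28a (15.9 kb) was tested only because of its level in EloA null, so its place in its class is not given. Sox2 (2.47 kb) and Nanog (7.14 kb) lay at 0.19 and 0.29, beside class medians of 0.19 and 0.12. The part of span in the differences of these genes was not tested.

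Genes within 10 kb of a core gene were looked up as well. Tcf19, which lies 1952 bases beyond the end of Pou5f1 on the opposite strand, had 1.52 and 1.91 in WT and 2.09 and 5.70 in EloA null in steady state, so it lay apart upward with the same second EloA null library highest. Cchcr1, on the other side of Tcf19, had 0.624 and 0.638 against 0.843 and 0.838. Kndc1, upstream of Utf1, was below the expression limit and had about the same ratio of means in all 3 conditions, 1.97 in steady state, 2.10 at 5 min and 1.97 at 10 min. Atp9a, beyond the 3′ end of Sall4, had 0.660 and 0.581 against 0.747 and 0.876. Dhdds, downstream of Lin28a, went the other way, with means of 1.73 and 1.52 in steady state, and these overlapped. None of the neighbours tested passed limma.

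Genes whose levels were most like each core gene were ranked by Pearson correlation of log2(RPKM + 0.1) over the 12 libraries among 8211 genes. These coefficients mostly follow the 3 conditions and share library depth, so they are a description. For Pou5f1 the first was its neighbour Tcf19 (r = 0.97), then Tuba1b (0.94) and Cd2bp2 (0.93). Nanog was most like Zscan10 (0.93), 2510002D24Rik (0.92) and Prcc (0.92), and Sall4 most like 0610005C13Rik (0.97), Cdca5 (0.96) and Icam1 (0.96). For Sox2 they were 1700099I09Rik (0.98), Utp3 (0.96) and Tln2 (0.95), and for Lin28a Zfp219, Ltbp4 and Tead2 (each 0.98). For Utf1, with its few reads, the highest were Tubb2a-ps2 (0.83), Rpl36 (0.75) and Tsix (0.75).

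Within the core set Pou5f1, Nanog and Sall4 varied together over the 12 libraries, with r = 0.90 between Pou5f1 and Sall4, 0.83 between Nanog and Sall4 and 0.73 between Pou5f1 and Nanog. For Sox2 the coefficients were weak, at -0.26 with Pou5f1, -0.29 with Nanog and -0.18 with Sall4, except for Lin28a (-0.75). These 12 libraries fall into 3 conditions and are not independent points.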

How the data were processed

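Bru-seq values were used from 12 libraries in 3 tables. The other 16 samples of the series and the Drosophila spike-in were not analysed here. The authors aligned reads to mm10 with Bowtie2 (version 2.3.4.3 in the submitters' processing notes), kept unique alignments, counted RefSeq genes with featureCounts 1.6.1 and deposited RPKM values normalized with edgeR. The sources used here do not give whether counting used strand, nor the scale of each table against the others. RPKM is relative to the library, so a change in total RNA synthesis is not seen. Columns of pair means were not used, and 4 rows with repeated symbols were left out.

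Genes with a mean RPKM above 0.5 in either genotype were tested within each table by limma 3.58.1 (R 4.3.3) with an intensity trend on log2(RPKM + 0.1), which understates changes of low genes, and adjusted by the Benjamini-Hochberg method over the table. All tests are two-sided, and the steady-state fit was tested on simulated data. An exact permutation test of 2 against 2 libraries cannot go below p = 0.333. Reads were worked out from RPKM steps: 96.2% of 10145 expressed genes with introns came out whole (within 0.02 of an integer) over introns, and 0.059% over the gene span, although the methods name whole genes. Processed copies of a gene, which lack introns, do not enter intron counts.

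Named besides the 6 genes were Eloa, neighbours within 10 kb, the 3 genes most like each member and, from each related list with no gene past the test, the 3 most abundant in WT steady state. The genes and lists were chosen with earlier results of these data known. P-values measure the spread between libraries described as duplicates. Alternatives tried were the pseudocount, the filter, scaling, quantile normalization, GC trend, robust variance, a fit over 12 libraries, the replicate block and leaving out each library.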

Additional observations from a re-analysis of the deposited data

Results flagged for a closer look

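Nanog was the gene of the 6 whose genotypes lay apart on opposite sides in 2 conditions. Both libraries titled EloA null were above both WT libraries in steady state and below both at 5 min after FP. Among all genes tested, 32.0% lay apart upward in steady state and 25.0% downward at 5 min. The share of genes doing both was not counted. Nanog was flagged because of this pattern, so how unusual it is among all genes is not known here. The difference between the 2 genotype effects was -0.74 on the log2 scale (SE 0.29) in the fit of all 12 libraries, and it did not pass limma over 8627 genes (adjusted p = 0.820). With 1 library left out it ran from -1.03 to -0.46. With 2 libraries per group, no sample could be tested as an outlier.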

How the results depend on the processing

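The count of core genes called was 0 in each condition and in both tests of a changed genotype difference, in all 65 alternative fits of these counts. Estimates for single genes kept their sign in 193 of 208 alternatives for the genotype difference and in 120 of 130 for its change after FP, and none passed the test in any. Many of the reversed ones were those of Utf1, which rests on 1 to 17 reads, and the others those of Pou5f1, Sox2, Nanog and Sall4. In steady state the Utf1 difference of 0.01 became -0.050 with each library centred on its median, -0.034 with quantile normalization and -0.30 with the GC trend removed, an alternative added after seeing the data, and with 1 library left out it ran from -0.87 to 0.89. Without 1 library the 5-min differences ran from -0.11 to 0.54 for Pou5f1, -0.13 to 0.36 for Sall4 and -1.68 to 0.43 for Utf1, and the 10-min ones from -0.24 to 0.16 for Nanog and -1.59 to 0.69 for Utf1. With the GC trend removed those of Sox2 and Nanog at 10 min became -0.0019 and 0.042. The change of the genotype difference ran, without 1 library, from -1.69 to 0.43 for Utf1 at 5 min, and at 10 min from -0.61 to 0.024 for Pou5f1, -0.15 to 0.10 for Sox2, -0.36 to 0.019 for Sall4 and -1.60 to 0.68 for Utf1.

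Over all genes 0 were called in the 3 tables as tested, but 132, 532 and 264 (steady state, 5 min, 10 min) in the fit of 12 libraries, and 81, 29 and 26 with a robust variance. At 10 min 5 genes were called with a pseudocount of 1, 12 with centring, 6 with quantile normalization and 12 with the GC trend removed. Without 1 library 0 to 60 were called at 5 min and 0 to 33 at 10 min. The cause was not tested. Dividing each recovery library by the median ratio of genes under 15 kb moved the median ratio of the 6 genes at 5 min to 1.29 in WT and 1.01 in EloA null, and at 10 min to 1.03 and 0.897.

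The replicate block, fitted with the number of each library, called 0 genes in steady state and 10-min recovery and 128 at 5 min, and 0 of the core genes in any. It changed some errors: in steady state from 0.24 to 0.14 for Pou5f1 and from 0.128 to 0.137 for Sall4, and at 5 min from 0.79 to 0.21 for Utf1. For the change of the genotype difference at 5 min, Pou5f1, Sox2 and Nanog then had an unadjusted limma p under 0.05, as did 718 of 8627 genes. Libraries of the same number deviated together only weakly (correlations 0.101, 0.119 and 0.103 in the 3 tables, over 2 pairs each), so the numbers were not taken to pair the samples. None of the correlations was negative, so the crossed pairing was not run.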

Other observations

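Relatives of the core genes were mostly at low levels. Of 10 paralogs 4 passed the expression limit in steady state, and 0 passed limma. All 4 had a higher mean in the libraries titled EloA null, as did 56.5% of all genes. Sall1, the relative of Sall4 with the highest level, had an RPKM of 10.6 and 10.2 in WT and 15.4 and 12.7 in EloA null in steady state, and 10.99 and 10.2 against 15.0 and 13.9 at 10 min. Sox15, a SOX factor present in ES cells, had 1.96 and 2.90 against 3.11 and 4.13, and Pou2f1, which encodes OCT1, had 4.41 and 4.96 against 5.02 and 4.64, with overlap. Lin28b, named here after its values were seen, was below the expression limit and lay apart downward in all 3 conditions. In steady state it had 0.429 and 0.503 in WT and 0.333 and 0.307 in EloA null. Of all genes tested, 21.4% lay apart downward in steady state, 25.0% at 5 min and 21.8% at 10 min. The share doing so in all 3 conditions was not counted.

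Of 12 genes of exit from pluripotency and of the germ layers, 3 passed the limit in steady state, and 0 passed limma. Dnmt3b, a DNA methyltransferase that rises as ES cells leave the naive state, had 1.76 and 1.82 in WT and 2.00 and 2.37 in EloA null, and Otx2, a homeodomain factor of the same step, had 1.52 and 1.26 against 2.19 and 1.56. Nes, which encodes nestin of neural precursors, had 0.594 and 0.531 against 0.480 and 0.574. The list summed to 4.32 and 4.71 in WT and 5.40 to 5.64 in EloA null. Among feeder markers Fbln2 had 0.441 and 0.416 in WT and 0.476 and 0.460 in EloA null in steady state. Most of that list had a lower mean in EloA null in steady state. Among these were Col1a1, with means of 0.498 in WT and 0.467 in EloA null, and Col1a2, with 0.486 and 0.387.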
